A study of Mus musculus with 4 samples.

Results

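The primary granule genes examined here are Mpo, Elane, Prtn3, Ctsg, Ms4a3, Cd63 and Mgam, which are 7 of the 32272 gene rows in a multiome matrix of mouse bone marrow nuclei. They were taken by gene symbol. The 117 of 174339 accessibility peaks that lie within 50 kb of the stretch from a member's first to its last annotated start were taken with them. The source was haematopoietic stem and progenitor cells (HSPCs) sorted as Lin-cKit+ from the bone marrow of 8-week-old male C57BL/6 mice. The Ctrl mice were unligated, and the Lig mice carried a silk ligature around the second molars for 14 days, a model of periodontitis. Both groups were wild type, and marrow of several mice was pooled into 1 sample per group before sorting, so that no value shows the spread between animals. The labels name 4 samples, an RNA and an ATAC library of each group, with 1 sample per group. The matrix pools them under 2 barcode suffixes that no label ties to a sample, so the suffixes are called library 1 and library 2 and belong to no group. No comparison of Lig with Ctrl was made and no test was possible. Values are given by library, and the intervals beside them are exact 95% intervals that cover counting error only.

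Primary, or azurophil, granules are the first granules that a developing neutrophil makes, at the promyelocyte stage. Their main cargo is myeloperoxidase and a family of serine proteases, which are stored in active form and released into phagosomes or onto neutrophil extracellular traps. The genes are transcribed early, and specific and gelatinase granule proteins are made later from another set of genes. Transcription factors of the C/EBP, ETS (PU.1), RUNX and MYB families are known regulators of the early set. Mpo encodes myeloperoxidase, which forms hypochlorous acid. Elane, Prtn3 and Ctsg encode neutrophil elastase, proteinase 3 and cathepsin G. Ms4a3 encodes a membrane-spanning protein of granulocyte-monocyte progenitors, Cd63 a tetraspanin of the granule and lysosome membrane, and Mgam maltase-glucoamylase, a glucosidase best known from the intestinal brush border and also found in neutrophil granules.

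The members lie at 6 places in GRCm38. GENCODE M21 places Mpo at chr11:87793581-87804413, Ctsg at chr14:56099881-56102574 on the minus strand, Ms4a3 at chr19:11629496-11640851 on the minus strand, Cd63 at chr10:128900989-128912822 and Mgam at chr6:40628831-40769123. Prtn3 and Elane are neighbours on the plus strand of chromosome 10, at chr10:79874476-79883174 and chr10:79886247-79888215. Their windows share 24 peaks and are not independent. The DNA just before the starts of the 4 best-known cargo genes is shown because a peak that set the progenitors apart overlapped the starts of Mpo, Elane and Ctsg, and Prtn3, which had no peak within 1 kb of its start, is given as the neighbour of Elane. Each line holds the 300 bases before the first start given in the deposited feature list, on the gene's strand and outside annotated exons, read from GRCm38.p6 (RefSeq assembly). Capitals mark matches on either strand to GAGGAA (ETS and PU.1), TGTGGT (RUNX), TTGCNNAA (C/EBP) or AACGG (MYB). The windows are chr11:87793281-87793580 for Mpo, chr10:79885947-79886246 for Elane, chr10:79879314-79879613 for Prtn3 and chr14:56102575-56102874 for Ctsg.
Mpo: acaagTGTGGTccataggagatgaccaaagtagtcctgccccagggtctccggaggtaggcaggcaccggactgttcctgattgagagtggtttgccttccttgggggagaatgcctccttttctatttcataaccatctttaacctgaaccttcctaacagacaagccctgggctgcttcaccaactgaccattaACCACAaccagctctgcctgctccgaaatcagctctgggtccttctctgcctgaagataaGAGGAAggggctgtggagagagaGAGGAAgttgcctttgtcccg
Elane: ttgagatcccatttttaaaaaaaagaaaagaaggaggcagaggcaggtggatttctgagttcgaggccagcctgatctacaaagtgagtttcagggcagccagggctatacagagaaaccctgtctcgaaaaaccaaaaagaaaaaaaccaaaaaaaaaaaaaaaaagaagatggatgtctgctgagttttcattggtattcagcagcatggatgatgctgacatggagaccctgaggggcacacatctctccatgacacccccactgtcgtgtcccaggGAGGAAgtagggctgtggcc
Prtn3: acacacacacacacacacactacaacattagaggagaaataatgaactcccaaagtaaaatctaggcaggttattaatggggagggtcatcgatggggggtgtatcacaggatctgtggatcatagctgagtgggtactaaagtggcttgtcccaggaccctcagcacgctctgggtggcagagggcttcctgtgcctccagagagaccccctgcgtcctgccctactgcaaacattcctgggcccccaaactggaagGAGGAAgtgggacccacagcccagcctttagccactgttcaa
Ctsg: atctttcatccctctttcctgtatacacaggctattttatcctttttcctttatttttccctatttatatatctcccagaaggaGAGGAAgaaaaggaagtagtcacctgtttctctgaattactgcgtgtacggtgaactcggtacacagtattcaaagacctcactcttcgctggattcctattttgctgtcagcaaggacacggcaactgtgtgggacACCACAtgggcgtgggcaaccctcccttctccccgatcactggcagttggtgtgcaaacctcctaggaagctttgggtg
GAGGAA began at -44 and -21 before Mpo, -20 before Elane, -42 before Prtn3 and -216 before Ctsg, where -1 is the base next to the start. In the RefSeq promoter windows of 300 bases (250 before and 50 after the RefSeq start, GRCm38.p6), which matched for 7 of 7 members, GAGGAA was present in 7. For Ms4a3 this depends on the bases past the start, as does its TTGCNNAA match below. The 300 bases before its GENCODE start (chr19:11640852-11641151) held none of the 4 motifs. GAGGAA was present in 28.3% of all 32851 promoters of that length. TTGCNNAA was present for 2 members (Mgam and Ms4a3) against 10.8% of all promoters, AACGG for 3 (Cd63, Elane and Prtn3) against 17.4%, and TGTGGT for 1 (Ctsg) against 16.8%. None of these motifs overlapped another in the windows printed here. No AACGG occurred in the windows printed here. A match describes letters and is not evidence of binding.

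The filters on genes and peak counts kept 13619 nuclei, 5905 in library 1 and 7714 in library 2, with 10294527 and 12537328 UMIs (unique molecular identifiers, 1 per captured RNA molecule). Median depth was 1641 and 1516.5 UMIs per nucleus. The genes of the ribosomal RNA locus took 43.0% and 53.2% of the UMIs, and 72 kept barcode sequences occurred in both libraries. Nuclei were clustered on RNA and ATAC together without the 7 genes and their 117 peaks, so that the members' levels played no part in the clusters. Clusters were named from marker lists as "like" a class. The granulocyte progenitor-like cluster held 1888 nuclei (629 and 1259), in which 7 of 19 markers were at least 2-fold above the other nuclei (Prom1, Alas1, Gfi1, Nkg7, Hk3, Prss57 and Trem3). None of the 19 was among its 10 leading genes. The late neutrophil precursor-like cluster held 491 nuclei (180 and 311) with 15 of 15 markers raised, and Ltf, Ngp and S100a9 among its leading genes. The sort removed cells that carried CD11b or Gr-1, so later neutrophil stages are under-represented by design. Background was read in 670 erythroid-like nuclei (13 of 16 markers raised) and 1839 B-lineage-like nuclei (12 of 12 B-progenitor markers raised), which do not make primary granules. In CPM (UMIs of a gene over all UMIs of that lineage and library, times 1e6), erythroid markers in the progenitor-like nuclei were 0.858 and 0.929 for Klf1 and 6.01 and 2.79 for Car1, beside 16.7 and 15.8, and 262.4 and 108.4 in the erythroid-like nuclei. The B markers in the progenitor-like nuclei were 9.44 and 3.25 for Cd79a, 6.86 and 2.79 for Pax5 and 54.1 and 19.97 for Ebf1, beside 99.1 and 58.9, 460.4 and 125.2, and 4691 and 1837 in the B-lineage-like nuclei. Each was thus lower than in its own class, though in library 1 Ebf1 gave 63 UMIs in the progenitor-like nuclei, beside 25 of their own marker Gfi1. All 7 raised markers were higher in the progenitor-like nuclei than in both background lineages in both libraries. For Gfi1 in library 1 the levels were close, at 21.5 CPM beside 19.2 in the B-lineage-like nuclei. Of the markers not raised, Ctsc was lower in both libraries, at 24.9 and 26.01 CPM beside 37.4 and 40.5 in the B-lineage-like nuclei. Hgf was lower in library 2 only, at 14.6 and 4.64 CPM beside 6.69 and 7.88 in the erythroid-like nuclei. Beside the B-lineage-like nuclei Plac8 was at 222.2 and 223.4 against 164.5 and 193.9, and Atp8b4 at 967 and 420.8 against 78.4 and 76.1.

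All 7 members were higher in the granulocyte progenitor-like nuclei than in the erythroid-like and B-lineage-like nuclei in both libraries, though for Cd63 in library 1 the difference was within counting error. Mpo gave the most UMIs of the 7 (UMI counts are not scaled by gene length, so levels are not compared between genes). It stood at 1984 CPM (95% interval 1904 to 2066) in library 1 and 2359 CPM (2294 to 2425) in library 2. In the background lineages Mpo was between 297.9 and 560.7 CPM, so no library of one overlapped the other. Against the higher background lineage of the same library the progenitor level was 6.09-fold (5.26 to 7.08) and 4.21-fold (3.82 to 4.64). Summed over the 7 genes, members took 0.326% and 0.464% of all UMIs of the progenitor-like nuclei, against 0.0627% to 0.130% in the background lineages.

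The 3 serine protease genes were also higher in the progenitor-like nuclei. Elane measured 415.3 CPM (379.1 to 454.0) and 574.5 CPM (542.9 to 607.5), against 79.9 to 138.6 CPM in the background, which gave ratios of 3.88 (2.99 to 5.12) and 4.14 (3.42 to 5.07). Prtn3 measured 522.5 CPM (481.9 to 565.7) and 861.1 CPM (822.3 to 901.2). Its background was high, from 177.5 to 424.5 CPM, so that its ratios were the lowest of the 3 proteases, 2.61 (2.14 to 3.20) and 2.03 (1.81 to 2.28). Ctsg was the most uneven between libraries, at 190.5 CPM (166.2 to 217.3) and 621.0 CPM (588.1 to 655.2), over a background of 40.0 to 78.5 CPM. Its ratios were 4.75 (3.11 to 7.57) and 7.91 (6.15 to 10.3).

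The remaining 3 members gave fewer UMIs. Ms4a3 stood at 88.4 CPM (72.1 to 107.2) and 143.0 CPM (127.5 to 160.0), with ratios of 2.94 (1.77 to 5.15) and 1.71 (1.31 to 2.26). Cd63 was at 33.5 and 56.2 CPM from 39 and 121 UMIs. In library 1 the erythroid-like nuclei reached 25.1 CPM of Cd63, and the ratio of 1.33 (0.72 to 2.61) was within counting error, while in library 2 it was 4.58 (2.41 to 9.79). Mgam rested on 28 and 53 UMIs, at 24.0 CPM (15.96 to 34.7) and 24.6 CPM (18.4 to 32.2). The background held 0 erythroid-like and 1 B-lineage-like UMI of Mgam in library 1, where a count of 0 has an exact upper limit of 6.17 CPM, and 2 and 5 UMIs in library 2. The ratios to the B-lineage-like nuclei were 46.3 (7.65 to 1893) and 4.01 (1.62 to 12.9).

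By a 4-fold limit in both libraries, 3 of the 7 members passed (Mpo, Ctsg and Mgam). Of all 7578 genes with at least 20 UMIs in the compared lineages of each library, 25 passed, or 0.33%. Mgam met the minimum of 20 UMIs only through the progenitor-like nuclei in both libraries, so its pass is no support, and the count and the median are descriptions. Elane missed the limit by its 3.88-fold ratio in library 1. The median log2 ratio of the members (pseudocount 1 CPM) was 1.95 and 2.04, and over all tested genes it was -0.44 and -0.44. Which members pass turns on the reference and on the clusters. Against the B-lineage-like nuclei alone 5 passed, and with clusters made without correction between libraries 1 passed. With clusters from the ATAC components 4 passed, Elane among them at 4.75-fold (3.74 to 6.11) and 5.61-fold (4.62 to 6.86). The share of all genes past the limit was not taken in these settings, so the counts are descriptions.

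**Figure D1:**
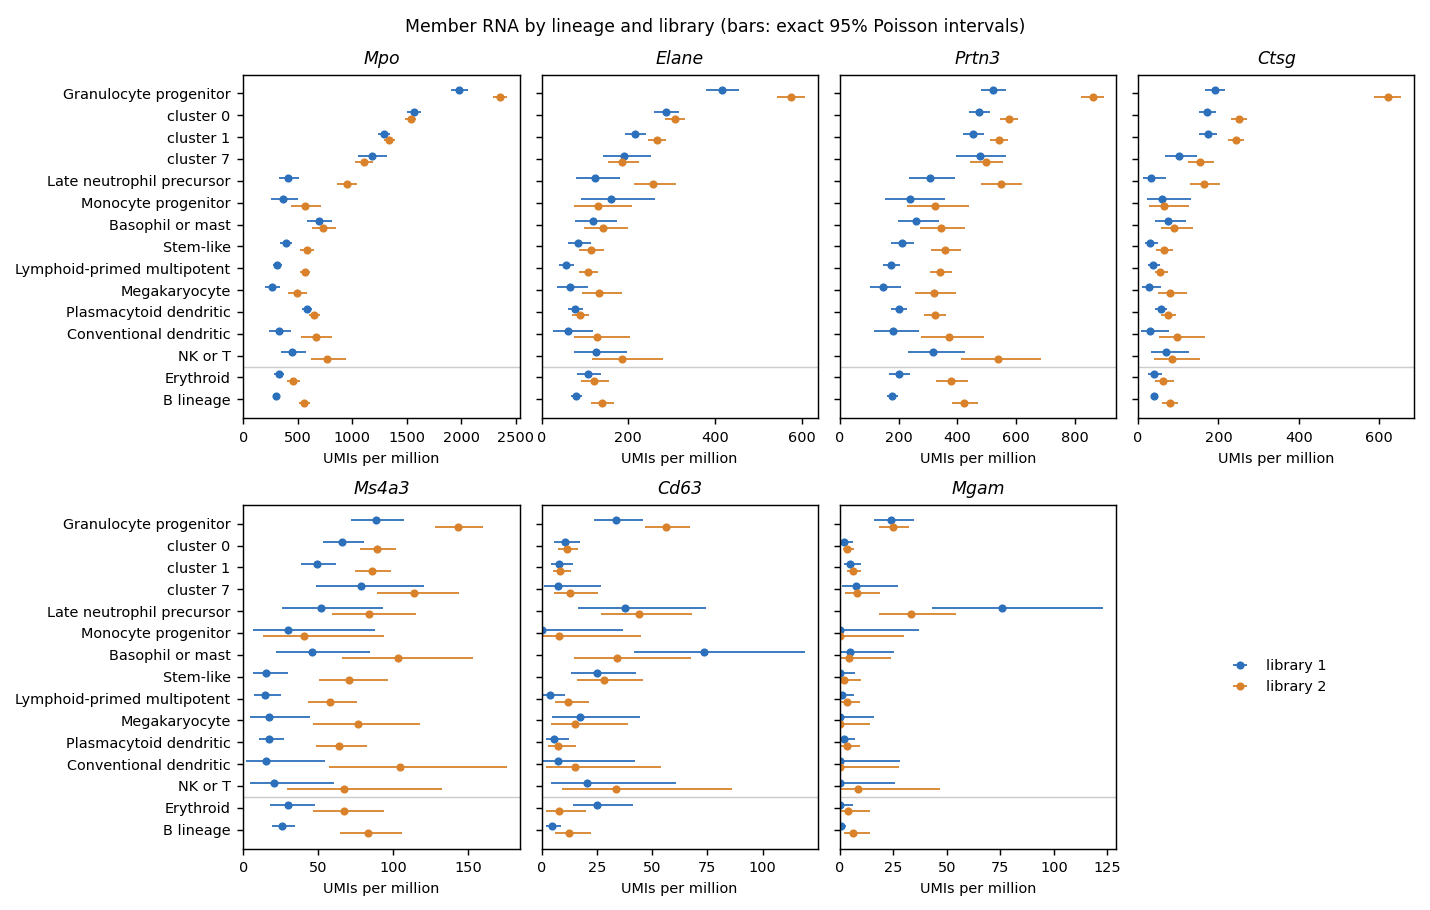
RNA of the 7 members in CPM (linear axis from 0) in each lineage, with 1 point per library and bars for exact 95% Poisson intervals. Lineages below the grey line are the background. Mpo, Elane, Prtn3, Ctsg, Ms4a3 and, in library 2, Cd63 have the progenitor-like point at or near the top, and Mgam is highest in the late neutrophil precursor-like nuclei.

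Clusters were also made from the ATAC components without the RNA components. The correction of these components between libraries used nuclei matched on RNA. RNA without the members thus set the cluster names and also bore on their borders. That granulocyte progenitor-like cluster held 1129 nuclei (386 and 743). Of these, 978 were in the joint cluster, which is 86.6% of the ATAC cluster and 51.8% of the joint cluster. Member levels were higher there for all 7 genes, with Mpo at 2552 and 3179 CPM, Elane at 582.8 and 813.0 CPM, Prtn3 at 662.2 and 1116 CPM and Ctsg at 249.6 and 944.1 CPM. The ratio to the higher background was 5.90 (5.20 to 6.70) and 5.76 (5.21 to 6.37) for Mpo, and 2.42 (1.24 to 5.01) and 6.01 (3.13 to 12.9) for Cd63. The background was not the same in the 2 sets of clusters, since the ATAC-based erythroid-like nuclei of library 1 held Mpo at 432.9 CPM beside 325.9 CPM. In library 1 the ratios of Mpo, Prtn3 (2.54) and Mgam (26.7) were thus below those from the joint clusters, although the levels were higher.

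Between the progenitor-like nuclei and the background lay 3 unnamed clusters. Cluster 0 (2217 nuclei, F13a1 and Nrg1 among its leading genes) held Mpo at 1568 and 1536 CPM, cluster 1 (1961 nuclei, led by Nrg1 and Stxbp6) at 1292 and 1342 CPM, and cluster 7 (674 nuclei, led by Sox6 and Rhd) at 1184 and 1107 CPM. The order of Mpo was thus progenitor-like, cluster 0, cluster 1 and cluster 7 in both libraries, and the intervals of clusters 1 and 7 overlapped in library 1. The remaining lineages lay at or below 951.2 CPM. Ctsg in cluster 0 was 171.2 and 250.5 CPM, and its interval overlapped that of the progenitor-like nuclei in library 1 but not in library 2. Cd63 did not follow this order, with 10.5 and 11.4 CPM in cluster 0, below the erythroid-like level in library 1. Its highest level was in the basophil or mast-like nuclei of library 1 at 73.3 CPM, and their ratio to the higher background was 2.92 (1.35 to 6.35) and 2.80 (0.96 to 7.88). Mgam had 2.10 and 3.37 CPM in cluster 0, where its ratios to the background, 4.04 (0.32 to 212.1) and 0.55 (0.16 to 2.13), were within counting error.

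The stem-like nuclei (722, with Mecom, Hlf and Meis1 among 5 of 8 markers raised) held no member above the higher background beyond counting error. Mpo was at 390.2 and 586.2 CPM, or 1.197-fold (0.98 to 1.46) and 1.05-fold (0.90 to 1.21) the higher background. Prtn3 gave 1.05 (0.80 to 1.37) and 0.84 (0.71 to 1.01), and Ctsg 0.76 (0.38 to 1.497) and 0.81 (0.52 to 1.24). The member furthest above background was Cd63 in library 2, at 28.3 CPM against 12.3 CPM, with ratios of 0.99 (0.43 to 2.24) and 2.30 (0.98 to 5.68). The median log2 ratio over the members was -0.34 and -0.24, beside -0.21 and -0.26 over all genes. A difference from background was not detectable at this depth, and for Cd63 the interval in library 2 only just reached 1. Lymphoid-primed multipotent-like nuclei held Elane at 55.7 and 105.9 CPM, or 0.52 (0.35 to 0.77) and 0.76 (0.58 to 1.01) of the background.

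Member transcripts were also counted relative to Mpo, and the members did not all differ in 1 direction. For every 100 Mpo UMIs, the progenitor-like nuclei held 26.3 (24.1 to 28.8) and 36.5 (34.6 to 38.5) Prtn3 UMIs. The erythroid-like nuclei held 61.5 (48.6 to 77.6) and 83.5 (68.7 to 101.6), and the B-lineage-like nuclei 59.6 (52.0 to 68.2) and 75.7 (65.7 to 87.3). The background lineages overlapped each other and lay above the progenitor-like nuclei in both libraries. Ms4a3 was in the same order, with 4.45 and 6.06 per 100 Mpo UMIs in the progenitor-like nuclei and 8.71 to 14.9 in the background, though the intervals of progenitor-like and erythroid-like nuclei touched in library 1. Elane per 100 Mpo UMIs was 20.9 and 24.4 in the progenitor-like nuclei and 24.7 to 32.8 in the background, and the intervals of progenitor-like and B-lineage-like nuclei overlapped in both libraries. Ctsg went in opposite directions in the libraries. In library 1 it was 9.60 (8.33 to 11.02) per 100 Mpo UMIs in the progenitor-like nuclei, 12.3 (7.70 to 18.9) in the erythroid-like and 13.4 (10.4 to 17.0) in the B-lineage-like nuclei, with overlapping intervals. In library 2 it was 26.3 (24.8 to 28.0) in the progenitor-like nuclei, above the 13.9 (9.26 to 20.1) and 14.0 (10.6 to 18.2) of the background.

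The libraries themselves differed in member levels. In the progenitor-like nuclei the median gene stood in library 2 at 0.629 times its library 1 CPM, while all 7 members were at or above their library 1 level. Ctsg was 3.26-fold higher (2.83 to 3.77), Prtn3 1.65-fold (1.503 to 1.81), Elane 1.38-fold (1.24 to 1.54) and Mpo 1.19-fold (1.13 to 1.25), and Mgam did not differ beyond counting error at 1.02-fold (0.64 to 1.68). Ctsg was 1 of 7 genes of 4997 (0.14%) at 2-fold or more in that direction. Ctsg was also higher in library 2 in the B-lineage-like nuclei, 1.96-fold (1.39 to 2.77), and in the erythroid-like nuclei the ratio was 1.57 (0.90 to 2.79). In the B-lineage-like nuclei Mpo was 1.88-fold (1.66 to 2.13) and Prtn3 2.39-fold (2.05 to 2.79) its library 1 level. In the late-like nuclei Ctsg was 4.92-fold (2.27 to 12.7) and Mpo 2.31-fold (1.83 to 2.95) its library 1 level, and in the stem-like nuclei Ctsg was 2.08-fold (1.12 to 4.01). Ms4a3 was 4.62-fold (2.13 to 11.4) its library 1 level in the stem-like nuclei, from 8 and 40 UMIs. It was 3.21-fold (2.20 to 4.73) in the B-lineage-like and 2.23-fold (1.22 to 4.19) in the erythroid-like nuclei. Some members went the other way, with Mgam at 0.44 (0.20 to 0.94) in the late-like and Cd63 at 0.31 (0.08 to 0.99) in the erythroid-like nuclei. In the unnamed clusters the members were not alike. In clusters 0, 1 and 7 the Mpo ratio was 0.98 (0.93 to 1.03), 1.04 (0.98 to 1.10) and 0.93 (0.82 to 1.07), that of Elane 1.07 (0.95 to 1.21), 1.23 (1.08 to 1.42) and 0.98 (0.70 to 1.38), and that of Ctsg 1.46 (1.26 to 1.70), 1.40 (1.21 to 1.63) and 1.52 (0.99 to 2.43). Prtn3 was between 1.04 and 1.21 there and Ms4a3 between 1.36 and 1.74. The share of UMIs from the ribosomal RNA locus was higher in library 2 too, and its part in the ratio was not tested. Since the libraries carry no group label, a difference between them cannot be told apart from one of treatment, animals, capture or depth.

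Detection per nucleus showed how member transcripts were spread. Each nucleus was thinned to 1000 UMIs, which left out 34 of 629 and 112 of 1259 progenitor-like nuclei that were shallower. The background lost more, with 40 of 335 and 82 of 335 erythroid-like and 398 of 1240 and 211 of 599 B-lineage-like nuclei. Mpo was then present in 77.8% (74.3 to 81.1, Clopper-Pearson) of 595 and 75.7% (73.1 to 78.1) of 1147 progenitor-like nuclei. The same share was 26.1% and 33.2% of the erythroid-like nuclei and 22.9% and 37.1% of the B-lineage-like nuclei, whose median depths before thinning were 1557 and 1318 UMIs and 1405 and 1209 UMIs, beside 1783 and 1598 in the progenitors. Ctsg was present in 17.8% and 30.5% of the progenitor-like nuclei, against 3.73% to 6.96% in the background. Mgam was present in 2.02% and 2.35%, and in the background in 0 of 842 (exact upper limit 0.437%) and 3 of 388 B-lineage-like nuclei and in 0 of 295 (exact upper limit 1.24%) and 1 of 253 erythroid-like nuclei.

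At least 3 members were present together in 26.6% (23.1 to 30.3) and 35.7% (32.9 to 38.5) of the progenitor-like nuclei. The background shares were 2.71% and 5.14% for erythroid-like and 1.43% and 6.96% for B-lineage-like nuclei. The unnamed clusters 0 and 1 were nearer to the progenitor-like set. The mean number of members per nucleus was 1.78 and 2.08 in the progenitor-like set, 1.57 and 1.65 in cluster 0 and 1.43 and 1.54 in cluster 1. In the background it was 0.519 to 0.992. Nuclei with no member were 12.4% and 11.4% of the progenitor-like set and 11.3% and 12.7% of cluster 0. Nuclei with 10 or more member UMIs were 3.03% and 11.2% of the progenitor-like set, beside 0 of 295 and 0 of 253 erythroid-like nuclei (exact upper limits 1.24% and 1.45%) and 1 of 842 and 1 of 388 B-lineage-like nuclei. The tenth of the progenitor-like nuclei with the most member UMIs held 26.8% and 36.4% of them, and the highest single nucleus had 18 and 44 of its 1000 UMIs from these 7 genes. Without thinning, 44.5% and 51.2% of the progenitor-like nuclei had at least 3 members.

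**Figure D2:**
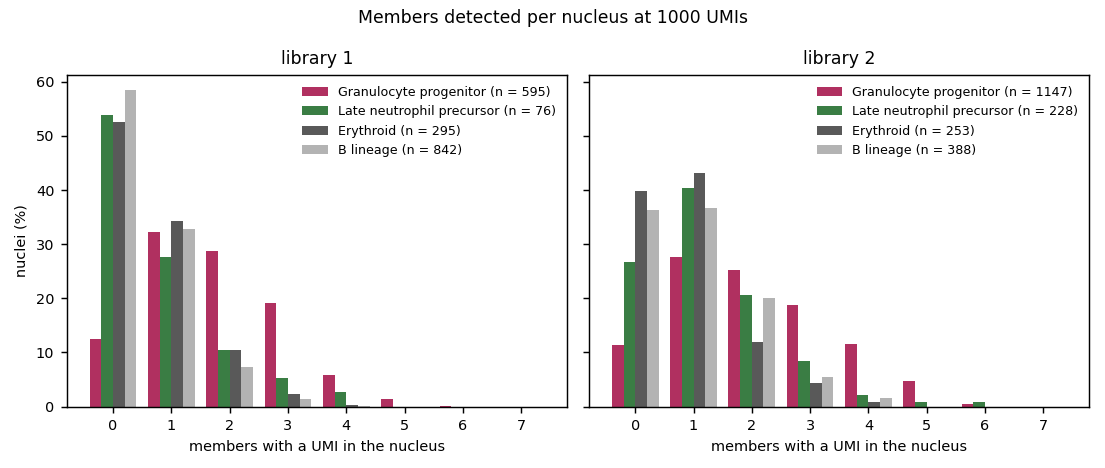
Share of nuclei (percent, bars from 0) by the number of the 7 members with at least 1 UMI, after thinning to 1000 UMIs, for each library. Nuclei with 4 members are 5.88% and 11.6% of the progenitor-like set and at most 1.55% of the erythroid-like and B-lineage-like sets.

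Towards the late neutrophil precursor-like nuclei the members split. Mpo was at 411.5 and 951.2 CPM there, 0.207 (0.165 to 0.257) and 0.403 (0.365 to 0.445) of the progenitor-like level. Ctsg was at 33.1 and 162.9 CPM, or 0.174 (0.069 to 0.364) and 0.262 (0.205 to 0.332), and Elane at 123.0 and 257.6 CPM, or 0.296 (0.191 to 0.439) and 0.448 (0.368 to 0.542). These 3 of 7 members were at 0.5 of the progenitor-like level or less in both libraries, as were 842 of 5487 genes, or 15.3%. Prtn3 was less reduced, at 0.588 (0.448 to 0.761) and 0.637 (0.556 to 0.727), and Ms4a3 was at 0.589 (0.285 to 1.10) and 0.585 (0.406 to 0.821). Cd63 did not differ beyond counting error, with 1.13 (0.46 to 2.45) and 0.78 (0.46 to 1.26). Some late-like levels were at the background. Against the higher background lineage Ms4a3 was at 1.73 (0.74 to 3.87) in library 1, and in library 2 at 83.7 CPM beside 83.4 CPM, and Prtn3 was at 1.53 (1.12 to 2.09) and 1.29 (1.09 to 1.52). Ctsg was at 0.83 (0.30 to 1.97) and 2.07 (1.46 to 2.95), Elane at 1.15 (0.70 to 1.84) and 1.86 (1.42 to 2.43), and Mpo at 1.26 (0.97 to 1.63) and 1.70 (1.48 to 1.94). In library 1 the intervals of Ms4a3, Ctsg, Elane and Mpo held 1. The part of the background in the ratios of late-like to progenitor-like nuclei was not tested.

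Mgam went the other way. It measured 75.7 CPM (43.3 to 122.9) in library 1 from 16 UMIs and 33.0 CPM (18.5 to 54.5) in library 2 from 15 UMIs, the highest of all lineages. Its ratio to the progenitor-like nuclei was 3.15 (1.59 to 6.03) in library 1 and 1.34 (0.70 to 2.42) in library 2, within counting error in the latter. Mgam was the only member whose ratio lay above 1 in both libraries. The median log2 ratio of late over progenitor-like nuclei was -0.76 and -0.77 for the members and -0.56 and -0.42 for all genes. The late-like nuclei were also shallower, with a median of 1143 UMIs beside 1640.5, and the part of depth in these ratios was not tested.

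The late granule list (19 genes of specific and gelatinase granules and neutrophil maturation, among them Ltf, Ngp and Camp) had the opposite pattern. All 17 of its genes with enough UMIs were higher in the late-like nuclei in both libraries, with a median log2 ratio of 5.98 and 4.67. Lactoferrin (Ltf) was at 3.43 and 16.3 CPM in the progenitor-like nuclei and at 1272 and 768.5 CPM in the late-like nuclei. Many of these genes are the markers that named the late cluster, so that this is a description. In the progenitor-like nuclei 0 of the 9 tested late granule genes reached 4-fold over background, and S100a8 and S100a9 were at 0.98- and 0.85-fold and at 0.79- and 0.86-fold the background.

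**Figure D3:**
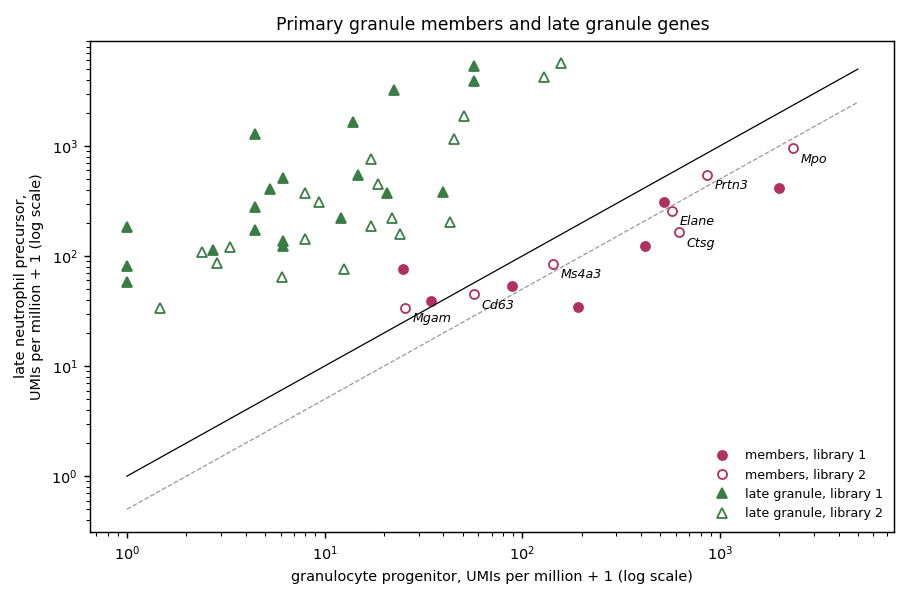
Level in late neutrophil precursor-like against progenitor-like nuclei in CPM plus 1 (both axes logarithmic), for the 7 members and the 19 late granule genes, filled for library 1 and open for library 2. The solid line marks equal levels and the dashed line 0.5 of the progenitor-like level. Mpo, Elane and Ctsg lie on or under the dashed line, Mgam above the solid line, and the late granule genes far above it.

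Accessibility was measured as peak CPM, the counts of a peak over all peak counts of that lineage and library times 1e6, with intervals on pairs of counts because both ends of a fragment are usually counted. Over the whole 50 kb windows Ctsg and Mgam were the members past a 2-fold limit. The Ctsg window held 96.5 and 95.7 peak CPM in the progenitor-like nuclei, against 23.3 and 27.3 in the erythroid-like and 9.76 and 16.6 in the B-lineage-like nuclei. The ratio to the higher background was 4.14 (3.22 to 5.41) and 3.51 (2.71 to 4.62). The Mgam window held 60.4 and 65.9, with ratios of 3.63 (2.69 to 5.01) and 4.92 (3.41 to 7.34). These 2 of 7 members passed a 2-fold limit in both libraries, as did 520 of 25663 gene windows, or 2.03%. A window was counted with at least 100 counts in the progenitor-like nuclei of each library, a minimum that favours windows high there, so the counts of windows past the limit at 50, 10 and 1 kb are descriptions and support nothing. Ms4a3 was at 1.53 (1.25 to 1.88) and 1.29 (1.06 to 1.58), Mpo at 1.08 (0.998 to 1.16) and 1.23 (1.13 to 1.33), and Elane, Prtn3 and Cd63 were between 0.95 and 0.99.

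The ratios were higher in narrower windows for some of the remaining members. Within 10 kb of its starts Mpo reached 60.7 and 63.9 peak CPM, 4.51-fold (3.24 to 6.44) and 4.40-fold (3.10 to 6.46) over background. Elane reached 1.97 and 1.88, Prtn3 1.92 and 1.86, and Ms4a3 2.48 and 1.95. Within 1 kb Mpo was at 7.65 (4.07 to 16.2) and 8.36 (3.90 to 21.9), Ctsg at 10.8 (4.88 to 29.97) and 6.15 (3.19 to 13.6), Ms4a3 at 30.6 (11.5 to 115.1) and 8.72 (3.92 to 24.2), and Elane at 3.83 and 2.82. Windows were laid around the stretch from a gene's first to its last start, which is 100122 bases long for Mgam and 8711 for Cd63. The 1 kb window of Mgam, at 3.29 and 3.40, thus held 6 peaks along that stretch and is not a window at a start. In all, 3 members were past 2-fold at 10 kb (646 of 21056 gene windows, or 3.07%) and 5 at 1 kb (331 of 15676, or 2.11%), with Mgam counted at both widths. Prtn3 had 0 peaks within 1 kb of its start. Cd63 stayed at 1.04 and 1.06 within 10 kb and at 1.13 (0.84 to 1.54) and 1.23 (0.90 to 1.74) within 1 kb, intervals that held 1.

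**Figure D4:**
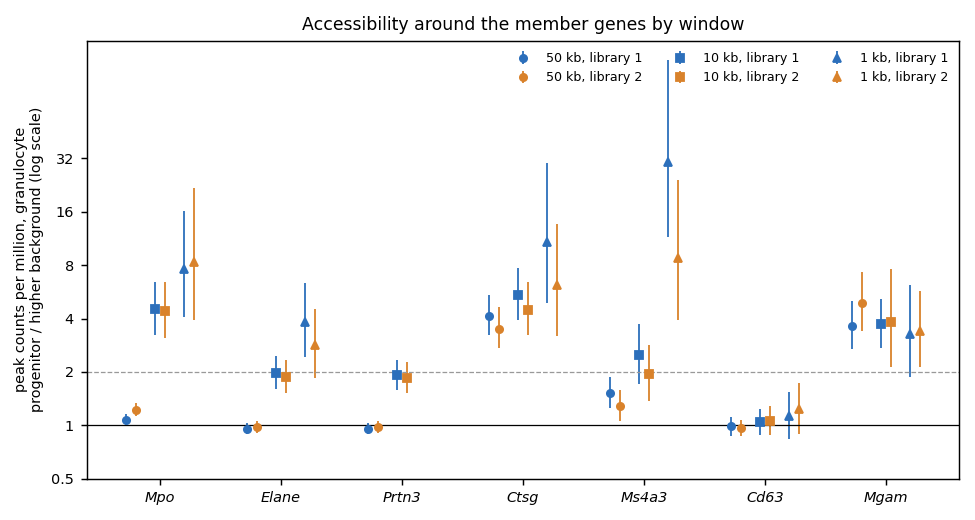
Ratio of peak CPM in progenitor-like nuclei to the higher of the erythroid-like and B-lineage-like nuclei (logarithmic axis), for 3 window widths, by library, with exact 95% intervals. Windows reach 50, 10 and 1 kb beyond the stretch from a member's first to its last start, which is 100122 bases long for Mgam. The solid line is 1 and the dashed line 2. Mpo moves from 1.08 and 1.23 to 7.65 and 8.36 as the window narrows, and Cd63 stays near 1.

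Single peaks were then compared. Of the 117 peaks, 53 had at least 100 counts in the progenitor-like nuclei of each library, and 17 of these were at least 2-fold over background in both, beside 15.0% of 35942 peaks in all. The minimum was set on the progenitor-like nuclei alone, which favours peaks that are high there, so these counts are descriptions and support nothing. Of the 25 Mpo peaks 6 passed, with centres from -13916 to 18073 bases from the first start. The strongest overlapped the first exon at chr11:87793209-87794118, with 26.8 and 24.3 peak CPM in the progenitor-like nuclei, at most 2.62 in the B-lineage-like nuclei and 7.65-fold and 8.36-fold over the erythroid-like nuclei. The others lay in an exon of Tspoap1, in intergenic DNA at -3299 and 11973 bases, in an exon of Mpo and in an intron of Lpo. The peaks with the most counts, at chr11:87749184-87749988 between genes, and at chr11:87755053-87755900 in Mir142hg, were at 0.57 to 0.76 of the background.

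Elane and Prtn3 shared 3 peaks that passed. The peak on the first exon of Elane, chr10:79885847-79886696, was 9.88-fold (5.60 to 18.8) and 5.05-fold (2.19 to 14.8) over background. One in an annotated intron of Prtn3, -1665 bases from the start printed above, chr10:79877565-79878333, was 3.35-fold (2.56 to 4.41) and 4.29-fold (2.57 to 7.76), and it was also open in the stem-like nuclei, at 17.5 and 18.0 peak CPM beside 24.5 and 28.8 in the progenitor-like nuclei. The third lay between the genes, at -1454 bases from Elane, at 2.35-fold and 2.11-fold. The most counted peak of both windows, chr10:79854033-79854881 in exons of Ptbp1, a splicing factor gene, was at 0.77 and 0.77.

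Of the 11 Ctsg peaks 4 met the minimum and 3 passed. The promoter peak chr14:56102091-56102928 was 10.8-fold and 6.15-fold over background, and one in an exon of Mcpt8, a basophil protease gene, was 7.97-fold and 4.05-fold. The most counted, chr14:56105145-56106028, lay at -3012 bases between genes, at 35.3 and 33.5 peak CPM in progenitor-like, 12.3 and 12.9 in late-like and 4.65 and 2.36 in stem-like nuclei, and 9.60-fold (5.21 to 19.8) and 5.76-fold (3.33 to 10.9) over background. Of the 21 Mgam peaks 3 met the minimum and all of these passed, with centres from -42946 to -33708 bases from the first start, one in an exon of Clec5a, a myeloid lectin gene. The largest ratio was at chr6:40588102-40589002, 13.6-fold (3.03 to 193.3) and 36.1-fold (6.33 to 1438), from 105 and 206 counts. The central 300 bases of these peaks are shown, on the gene's strand (chr14:56105437-56105736 and chr6:40588403-40588702, GRCm38.p6), because they lead their windows in counts and in ratio.
Ctsg peak: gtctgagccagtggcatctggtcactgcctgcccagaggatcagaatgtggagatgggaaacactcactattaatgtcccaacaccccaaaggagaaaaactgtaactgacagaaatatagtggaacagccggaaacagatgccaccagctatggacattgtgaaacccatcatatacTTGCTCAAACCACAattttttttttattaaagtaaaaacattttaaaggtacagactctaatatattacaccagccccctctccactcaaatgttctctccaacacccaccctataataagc
Mgam peak: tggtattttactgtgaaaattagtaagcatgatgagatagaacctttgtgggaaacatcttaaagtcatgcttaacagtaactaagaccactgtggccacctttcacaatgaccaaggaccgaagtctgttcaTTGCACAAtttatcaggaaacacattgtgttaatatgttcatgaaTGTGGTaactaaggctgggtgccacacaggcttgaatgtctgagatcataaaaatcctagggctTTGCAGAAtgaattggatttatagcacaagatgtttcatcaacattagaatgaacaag
In the Ctsg peak a C/EBP match at bases 179 to 186 was followed directly by a RUNX match at 187 to 192. The Mgam peak held C/EBP matches at bases 134 to 141 and 243 to 250 and a RUNX match at 179 to 184. For Ms4a3 the promoter peak chr19:11640473-11641349 was 30.6-fold and 8.72-fold over background, and a peak in an intron of Oosp2, chr19:11658883-11659787, was 25.2-fold and 5.66-fold. Of the 15 Cd63 peaks 6 met the minimum and 0 passed.

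**Figure D5:**
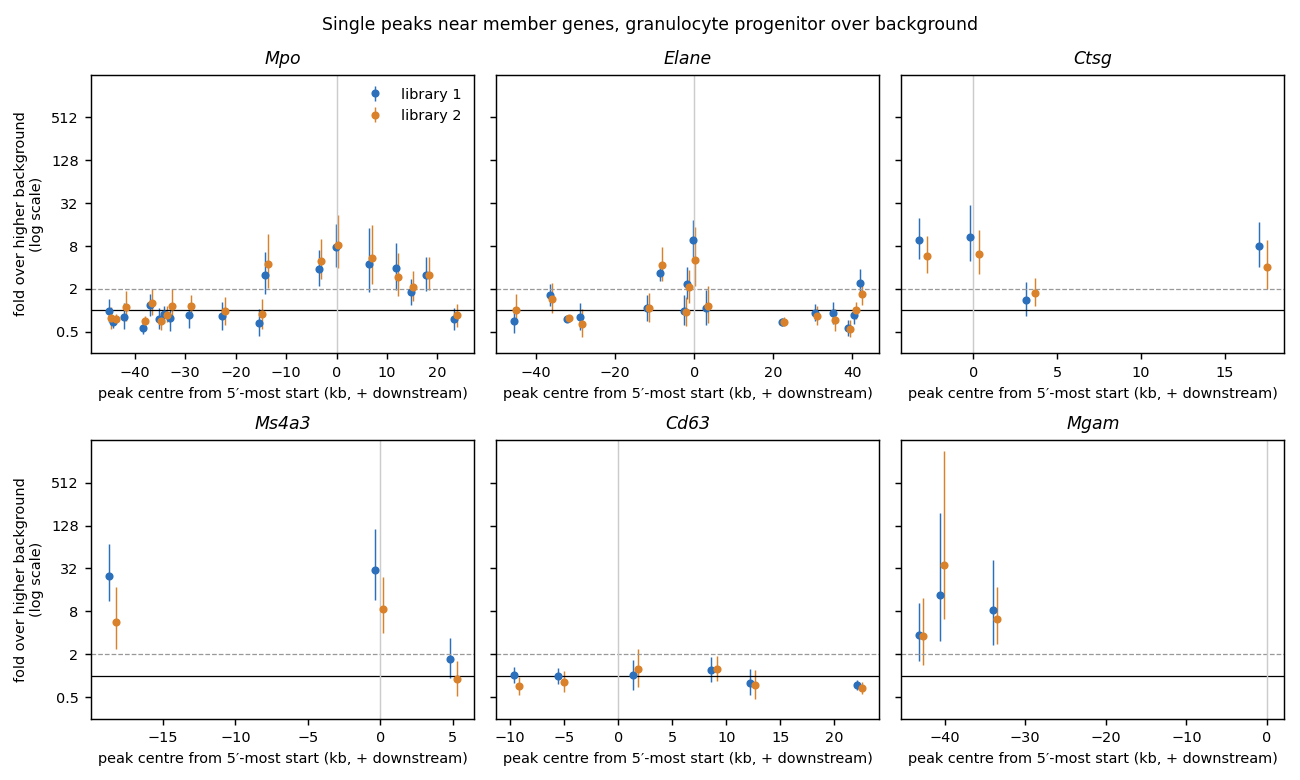
Ratio of peak CPM in progenitor-like nuclei to the higher background (logarithmic axis) for single peaks with at least 100 progenitor counts in each library, against the distance of the peak centre from the member's first start in kb. Prtn3 is left out since it shares the Elane peaks. For Mpo, Elane, Ctsg and Ms4a3 a peak at the start lies above 2 in both libraries, and the Cd63 peaks lie between 0.67 and 1.24.

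Accessibility in the late neutrophil precursor-like nuclei also differed by member. The Mpo promoter peak had 3.39 and 10.4 peak CPM there, against 26.8 and 24.3 in the progenitor-like nuclei, while the 50 kb window of Mpo did not differ beyond counting error, at 355.5 and 355.0 peak CPM beside 337.8 and 355.0. The 50 kb window of Elane was higher, at 1.31 (1.196 to 1.44) and 1.09 (1.01 to 1.17) of the progenitor-like level. That of Prtn3, which shares most of its peaks, was at 1.28 (1.17 to 1.40) and 1.07 (0.996 to 1.16). Nearer the starts both were lower in the late-like nuclei. Within 1 kb Elane was at 9.33 and 13.2 peak CPM, beside 28.1 and 28.4 in the progenitor-like nuclei. Within 10 kb Elane was at 45.4 and 51.8 beside 75.0 and 82.4, and Prtn3 at 52.2 and 55.6 beside 83.7 and 91.5. The Ctsg window was at 0.378 (0.271 to 0.515) and 0.413 (0.324 to 0.520) of the progenitor-like level. The Ms4a3 promoter peak was at 16.5 and 15.5 peak CPM, beside 11.1 and 12.8, while its 50 kb window was at 0.559 and 0.663. The Mgam window was at 1.33 (1.05 to 1.66) and 1.08 (0.89 to 1.29) of the progenitor-like level. In the stem-like nuclei the Mpo window was at 0.726 (0.655 to 0.805) and 0.805 (0.720 to 0.899) of background, and the Mgam window at 1.35 (0.91 to 2.01) and 2.13 (1.38 to 3.36).

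Over 15 lineages by 2 libraries, which share depth and free RNA within a library, the RNA of Mpo, Elane, Prtn3 and Ctsg moved together, with Pearson r of 0.89 to 0.94 between pairs of log2 CPM values (30 points, description only). Ms4a3 correlated with them at 0.74 to 0.87, Mgam at 0.51 to 0.65 and Cd63 at 0.22 to 0.33. Among other genes the nearest in pattern were Calr (0.86), Cdk8 (0.82) and Alas1 (0.79) for Mpo, Alas1 (0.79), Cdk8 (0.78) and Tfec (0.74) for Elane, Ly6c2 (0.79), Cdk8 (0.77) and Wnt2 (0.69) for Prtn3, and Calr (0.83), Cdk8 (0.78) and Pdia6 (0.73) for Ctsg. For Ms4a3 they were Gm42418 (0.79), Cdk8 (0.72) and Lars2 (0.71), where Gm42418 lies in the ribosomal RNA locus. Cdk8 and Lars2 gave 260865 and 434848 UMIs, beside 24737 of Mpo, and the origin of these counts was not tested. For Cd63 the nearest were Syne1 (0.79), Suclg1 (0.75) and Serpinb1a (0.69), and for Mgam Wnt2 (0.79), Lta4h (0.75) and Aff2 (0.74). Calr and Pdia6 encode proteins of folding in the endoplasmic reticulum, and Alas1 the first enzyme of haem synthesis. Alas1 was among the raised markers of the progenitor-like cluster, and Wnt2 and Aff2 among its leading genes. Their likeness to members over these clusters is thus no support.

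Other genes of the granule pathway did not reach the 4-fold limit, which 0.33% of all tested genes reached, so that a count of 0 in a short list carries little information. Their median ratios are read beside the all-gene median log2 ratio of -0.44 in both libraries, above which each list's median lay. The genes of these lists took part in the clustering, so that their counts are descriptions. Of 13 tested genes of other azurophil and lysosomal content, 0 reached 4-fold, with a median log2 ratio of -0.26 and 0.30. In this list 4 genes lay above and 5 below the background in both libraries. The azurophil protease gene Prss57 was at 2.88- and 2.22-fold, but it was among the 7 raised markers of the cluster, so this is no support. Of 16 tested genes that process, sort or inhibit granule proteases, 0 passed, with medians of 0.03 and 0.21. The calreticulin gene Calr, a chaperone for myeloperoxidase, was at 357.8 and 427.8 CPM, 2.21- and 2.65-fold over background, and its late-like level was 0.17 and 0.38 of that. Of 10 tested regulators 0 passed, with medians of 0.02 and -0.14, and Myb was at 0.73 and 0.68 of the background.

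Of 8 tested genes from the chromosomal neighbourhoods, 2 passed the 4-fold limit, both next to a member. Tspoap1, upstream of Mpo, was at 85.8 and 54.8 CPM, 9.72- and 6.95-fold over background. It was not particular to the progenitor-like nuclei, since it was among the leading genes of unnamed cluster 0. Plppr3, which has an exon in the same peak as one of Prtn3 and whose reads may not be separable from it, was at 100.4 and 49.7 CPM, 6.67- and 4.05-fold. In library 2 both met the minimum of 20 UMIs only through the progenitor-like nuclei, with 4 erythroid-like and 6 B-lineage-like UMIs of Tspoap1 and 4 and 10 of Plppr3, so that their passes are no support. In the late-like nuclei they were at 0.11 and 0.04 and at 0.09 and 0.49 of the progenitor-like level. On the same side of Elane and Prtn3, Ptbp1 was at 0.82- and 0.88-fold the background, and Med16, on the other side, at 0.57- and 0.83-fold. Mcpt8 was at 1.10- and 0.64-fold, although a peak in its exon was among those open in the progenitor-like nuclei.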

How the data were processed

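HSPC nuclei were profiled by 10x single-nucleus multiome. The deposited counts were made by the authors with Cell Ranger ARC 2.0.0 on GRCm38 (mm10), as the file header and the submitters' processing notes give it. The notes also name Seurat 4.0.3 and Signac 1.3.0. They are raw UMIs per gene and raw ATAC counts per peak. Of the nonzero peak entries, 82.5% were even.

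Nuclei with at least 200 genes and 1000 to 50000 peak counts were kept. No mitochondrial filter was applied. RNA (30 principal components) and ATAC (components 2 to 30 of latent semantic indexing) were corrected between libraries and joined by weighted nearest neighbours at resolution 0.8 (Seurat 5.3.0, R 4.3.3), with the members left out. Scrublet (scanpy 1.11.5) called 4 doublets, 0.0294% of nuclei, and had not worked, so no doublet was removed. A name needed at least 3 markers with 10 or more UMIs raised by a log2 ratio of at least 1 and a mean log2 ratio of at least 0.5, with no other class holding more of the 10 leading genes. This rule was completed after marker tables were seen. B progenitor-like and later B-like clusters were pooled.

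UMIs were summed per lineage and library and divided by the sum over all genes. Intervals are exact Poisson for levels, conditional binomial for ratios and Clopper-Pearson for shares (scipy 1.17.1). PCR and capture error are not covered. The computation was tested on simulated data. Named were the 7 members, the 3 genes nearest in pattern to each (lineages with at least 50 nuclei per library, genes with at least 100 UMIs), list genes past 4-fold and, per member, the peaks leading in counts or ratio, and a few others were chosen after their values were seen. Members and lists were chosen with earlier results of these data known. Alternatives were other cell filters, clusterings, scalings, pseudocounts, backgrounds and windows.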

Additional observations from a re-analysis of the deposited data

How the results depend on the processing

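No paired analysis was possible because the libraries carry no group label, and no replicate could be left out with 1 sample per group. The count of members at 4-fold or more in the progenitor-like nuclei was 3, and became 1 without correction between libraries and 5 against the B-lineage-like nuclei alone. The share of all genes past that limit was 0.33% with at least 20 UMIs and 2.80% with at least 1. It was not taken for the other clusters or backgrounds. The count of members at 2-fold or more in peaks was 2 at 50 kb and 5 at 1 kb, beside 2.03% and 2.11% of all gene windows. Mgam is among the 5, though its window spans the 100122 bases from its first to its last start. The late over progenitor-like median log2 ratio stayed below 0 under every alternative run. In library 1 it was -1.23 at resolution 1.2, -1.34 with ATAC clusters, -1.36 with the members left in and -0.26 with median-of-ratios scaling, and in library 2 -1.48 with the members left in. The median over all genes was also below 0 in the main run, at -0.56 and -0.42. It was not taken under the alternatives, so the sign alone does not set the members apart. The stem-like median log2 ratio in peaks in library 1 moved from -0.10 to 0.12 with ATAC clusters, 0.0704 at 10 kb and 0.12 at 1 kb.

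The share of progenitor-like nuclei with at least 3 members was 26.6% and 35.7%. With the peak limits set on pairs of counts and the kept nuclei clustered anew it was 39.7% and 54.2%. It was 38.1% and 54.5% at resolution 1.2, 37.9% and 51.5% with ATAC clusters and 34.1% and 46.2% with RNA clusters. With the members left in it was 41.2% and 57.8%, and unthinned 44.5% and 51.2%. The causes were not tested. Where the main clusters were kept, applying the peak limits to pairs of counts left out 568 barcodes that had no cluster. Depth limits Mgam and Cd63 most, since both rest on few UMIs.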

Other observations

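In the basophil or mast-like nuclei (292) the Ctsg window was 2.97-fold (2.14 to 4.14) and 2.91-fold (2.09 to 4.07) over the higher background, and the Ms4a3 window 1.93-fold (1.47 to 2.52) and 1.59-fold (1.22 to 2.09). Their Ctsg RNA was 1.83-fold (0.91 to 3.58) and 1.15-fold (0.67 to 1.90), and their Ms4a3 RNA 1.52-fold (0.63 to 3.48) and 1.23-fold (0.74 to 1.99), within counting error in each library. Both windows also cover basophil genes, Mcpt8 near Ctsg and Ms4a2 near Ms4a3. The difference between the layers was not tested.

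The Mgam window was also above background in unnamed clusters, and it was not confined to these. In the conventional dendritic-like nuclei it was at 33.4 (21.8 to 49.0) and 26.2 (15.5 to 41.3) peak CPM. The higher background, the erythroid-like nuclei, was at 16.6 (12.2 to 22.1) and 13.4 (9.04 to 19.1), with overlapping intervals. In cluster 0 the Mgam window was 4.08-fold (3.03 to 5.60) and 4.71-fold (3.27 to 7.03) over background, with 3 and 8 Mgam UMIs in the whole cluster. In cluster 1 it was 3.68-fold (2.73 to 5.07) and 4.97-fold (3.45 to 7.41), with 7 and 14 Mgam UMIs. The Ctsg window was likewise above background in these clusters, at 3.43-fold (2.66 to 4.47) and 2.73-fold (2.11 to 3.603) in cluster 0 and 3.42-fold (2.66 to 4.46) and 2.99-fold (2.31 to 3.93) in cluster 1.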
